A study of Mus musculus with 16 samples.

Results

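The genes described here are 10 genes of iron storage, iron uptake and heme breakdown, read in microglia sorted from the brains of an Alzheimer's disease mouse model. They were taken from the deposited table by their symbols (Fth1, Ftl1, Ncoa4, Tfrc, Steap3, Aco1, Ireb2, Hmox1, Blvrb and Gpx4). All 10 were listed among the 17951 genes of the table, which held only genes that had passed the authors' filter on low reads. Mice were injected with methoxy-X04 (Me-X04), a fluorescent dye that crosses into the brain and binds amyloid-β aggregates, and microglia were sorted as live cells bearing Cd11b, Cd45 and Cx3cr1. Microglia of 5xFAD transgenic mice (TG) were split into cells without dye (TG Me-X04-, 5 libraries) and cells that carried it (TG Me-X04+, 4 libraries), and cells of wild-type mice (WT, 7 libraries) were all without dye. 5xFAD mice carry mutated human transgenes driven by the neuronal Thy1 promoter, so the transgenes are not a change made in the microglia themselves. The sample labels give 5xFAD as the strain of every library, 2 months as the age of the WT mice and 6 months as that of the TG mice. By these labels age and genotype cannot be told apart in any comparison with WT, whereas both TG groups have 1 age. The ages in the study's methods differ from the labels. Dye-negative and dye-positive libraries numbered alike share an animal label (TG1 to TG4).

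Ferritin is the shell in which cells store iron, and it is built from a heavy chain that oxidises iron (Fth1) and a light chain that helps the mineral core form (Ftl1). Ncoa4 carries ferritin to the lysosome when iron is needed, the transferrin receptor (Tfrc) brings in transferrin-bound iron, and Steap3 reduces that iron in endosomes. The iron-sensing proteins Aco1 (IRP1) and Ireb2 (IRP2) bind a short hairpin in the untranslated regions of these mRNAs, where they block translation of ferritin and protect Tfrc mRNA from decay, so that ferritin protein is largely set after transcription. Hmox1 opens the heme ring and frees its iron, Blvrb reduces biliverdin, and Gpx4 removes lipid peroxides that iron can help to form. Microglia are the macrophages of the brain parenchyma and a known site of ferritin in aged and amyloid-bearing brain.

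The hairpin that the iron sensors bind, the iron-responsive element, is shown because it is the sequence through which iron acts on the mRNAs of ferritin, Tfrc and ferroportin, whose levels are described below. Gencode transcripts on GRCm38 were searched on the sense strand for CNNNNNCAGTGN followed by 5 bases that pair with the 5 bases after the first C (G with T allowed). Such a match lay in an untranslated region of 160 of 21901 protein-coding genes (0.731%), and among the 10 genes in Fth1, Ftl1 and Tfrc. In Fth1 it lay in the 5′ UTR (chr19:9982733-9982759, plus strand) and in Ftl1 also in the 5′ UTR (chr7:45459780-45459806, minus strand). In Tfrc, 4 matches lay in the 3′ UTR (chr16:32631220-32631246, chr16:32631599-32631625, chr16:32631664-32631690 and chr16:32631711-32631737, plus strand). Of the wider list of iron genes described below, Slc40a1, the iron exporter ferroportin, had 1 in its 5′ UTR (chr1:45925466-45925492, minus strand), and so had Alas2, the erythroid enzyme of heme synthesis (chrX:150547459-150547485, plus strand). No match was found in Steap3, Slc11a1, Trf, Slc25a37, Maf, Hscb or Nfs1, which are also described below. The capitals mark the 6 bases of the loop, and each sequence is written 5′ to 3′ on the strand of the mRNA with T for U.
Fth1: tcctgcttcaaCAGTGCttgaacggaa
Ftl1: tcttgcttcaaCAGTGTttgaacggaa
Alas2: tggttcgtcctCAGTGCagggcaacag
Slc40a1: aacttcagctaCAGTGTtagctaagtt
Tfrc element 1: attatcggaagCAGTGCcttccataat
Tfrc element 2: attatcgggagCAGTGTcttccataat
Tfrc element 3: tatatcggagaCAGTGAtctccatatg
Tfrc element 4: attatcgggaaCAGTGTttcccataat
The search could not find elements with another loop or an unpaired stem, so the number of matches need not be the number of elements. A match is a description of the sequence, and the libraries measure mRNA, so binding of the sensors and ferritin protein were not measured.

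Between 15623664 and 27579017 reads fell on the listed genes in a library. All values are the deposited log2 RPKM (reads scaled by gene length and by library size, on a log2 scale), which allow levels to be compared between genes as well as between libraries. Reads of the mitochondrial genome took 10.96% to 24.1% of the reads in WT libraries, 18.2% to 35.6% in TG Me-X04- libraries and 27.2% to 44.8% in TG Me-X04+ libraries. The libraries also fell into 2 sets on the first principal component of the values after group means were removed (37.8% of that variance). Set A held WT 1 to 3 and numbers 1 and 2 of both TG groups, and set B held the others. As this split was taken from the values themselves, any call from a fit with a term for the sets depends on it. The study's methods name a first sequencing platform with reads of 50 cycles and a later one with 75, but which library was read on which is not given in the sources used here. The microglial markers P2ry12 and Tmem119 were read in every library. Of 8 erythroid markers only Hba-a1, Alas2 and Epor were listed, with a summed level of 0.588 to 2.77 RPKM in TG Me-X04+, 1.02 to 2.17 RPKM in TG Me-X04- and 0.980 to 1.93 RPKM in WT libraries. Of 8 markers of border-associated macrophages 7 were listed, and their summed level ran from 2.82 to 20.9 RPKM in TG Me-X04+, from 1.78 to 7.65 RPKM in TG Me-X04- and from 2.51 to 6.40 RPKM in WT libraries. Their part in the results was not tested. In sorted pools of cells, fewer cells of a kind and less RNA per cell cannot be told apart.

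**Figure D1:**
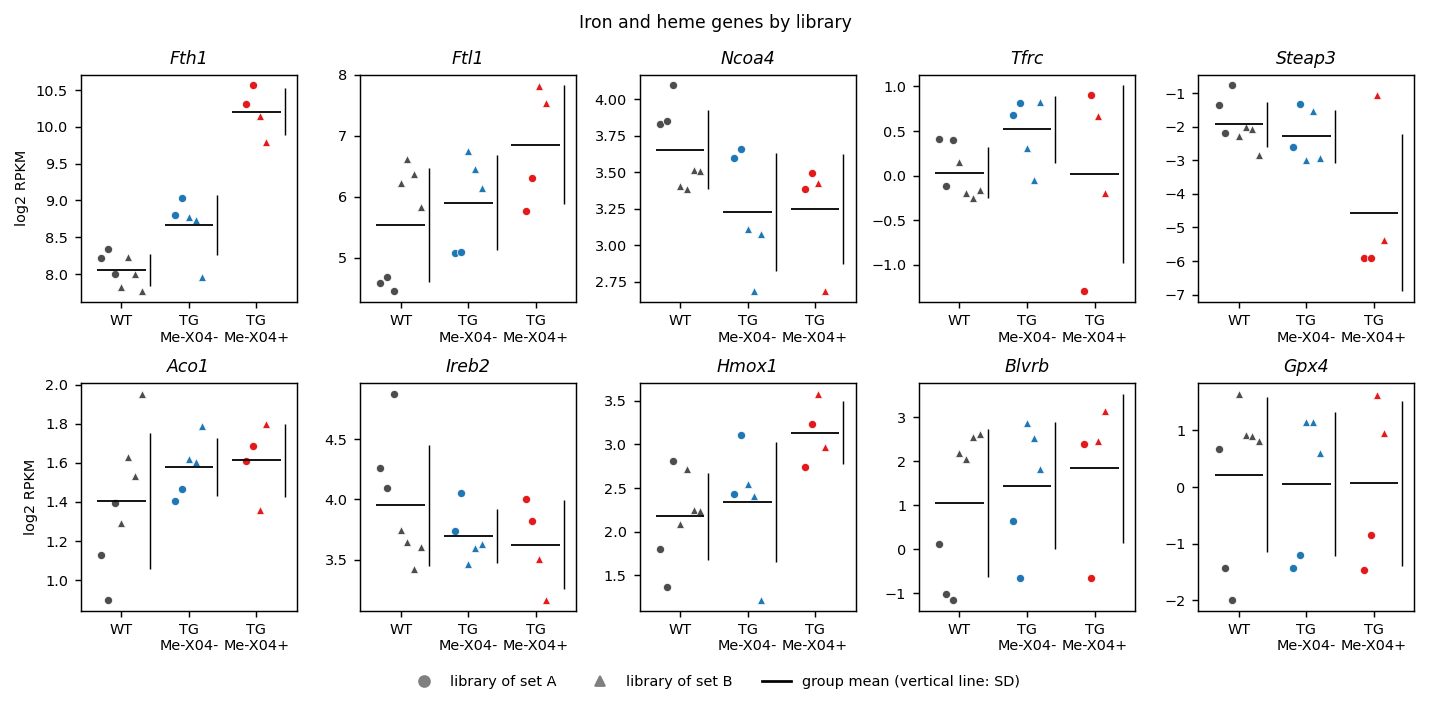
Level of each of the 10 genes (log2 RPKM, vertical axis, own scale per panel) in every library, by group. Circles are libraries of set A and triangles those of set B, the horizontal line is the group mean and the vertical line its SD. Fth1 is the gene whose TG Me-X04+ libraries (9.80 to 10.57) all lie above every other library. Ftl1, Blvrb and Gpx4 (higher in set B) and Ireb2 (higher in set A) separate by set within each group.

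A gene was called differentially expressed (DE) when limma, run on the 3 groups together with Benjamini-Hochberg adjustment across the 17951 genes, gave an adjusted p below 0.05 with an absolute log2FC of 0.7 or more. Comparing TG Me-X04+ with TG Me-X04- microglia asked which genes go with dye uptake within TG mice. Of the 10 genes 1 was called, Fth1, which rose, beside 5.49% of all genes called in this comparison (3.44% higher and 2.06% lower). The median log2FC of the 10 genes was 0.03, against -0.09 over all genes. Comparing TG Me-X04- with WT asked what differs without dye uptake, and none of the 10 genes was called by limma (0.201% of all genes were), while 1 of the 10 had an unadjusted p under 0.05, as did 929 of all genes. The median log2FC was 0.17 for the 10 genes and 0.01 for all genes. Comparing TG Me-X04+ with WT, Fth1 rose and Steap3 fell (2 of 10 called, beside 14.3% of all genes, 8.25% higher and 6.02% lower), with a median log2FC of 0.10 for the 10 genes and -0.11 for all genes. Over all genes 617 rose and 369 fell between the TG groups, and 1481 rose and 1081 fell against WT. With the scaling outside the mitochondrial genome, which moved the median log2FC of all genes to -0.46 and -0.39, the splits were 250 to 905 and 1021 to 1996, and between the TG groups quantile normalization gave 421 to 407. The last 2 comparisons use the same WT libraries, and the first and last the same TG Me-X04+ libraries, so they are not separate evidence.

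**Figure D2:**
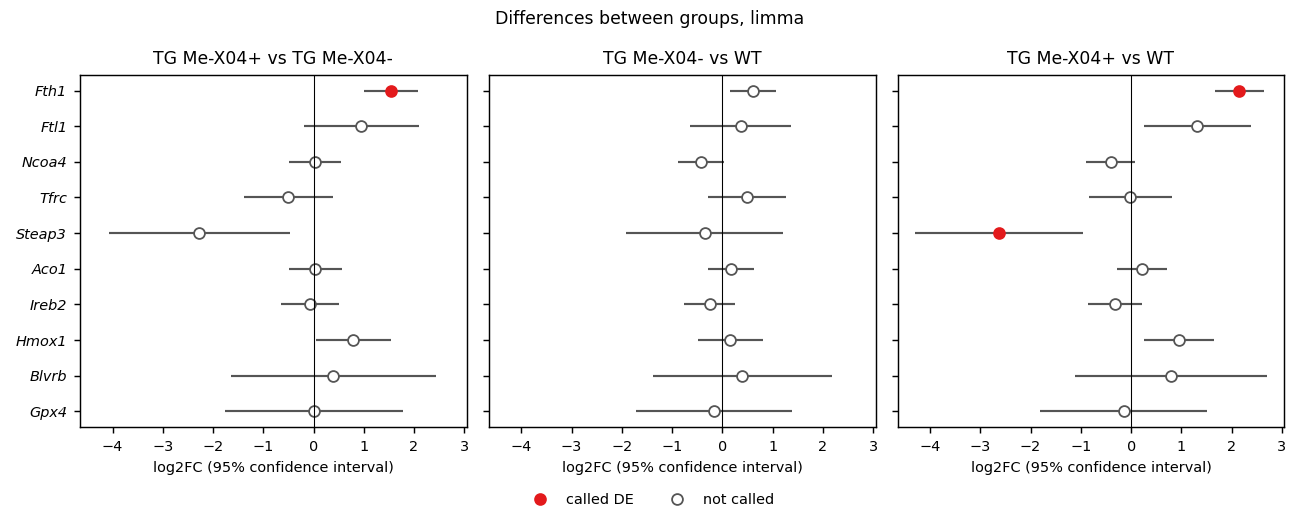
The log2FC of the 10 genes (horizontal axis) with its 95% confidence interval in each of the 3 comparisons, from limma. Filled red points are called DE. Fth1 is called in both comparisons of TG Me-X04+ libraries (1.54 and 2.15) and Steap3 only against WT (-2.63), and the intervals of Blvrb and Gpx4 are wide.

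Fth1 (ENSMUSG00000024661, chr19:9980598-9985098), the ferritin heavy chain, rose in TG Me-X04+ microglia. Its level was 10.31, 10.57, 10.15 and 9.80 log2 RPKM in TG Me-X04+ libraries 1 to 4. In TG Me-X04- libraries 1 to 5 it was 8.80, 9.04, 8.78, 8.74 and 7.97 log2 RPKM. In WT it ran from 7.76 to 8.34 log2 RPKM with a median of 8.0. All 4 TG Me-X04+ libraries thus lay above all TG Me-X04- and WT libraries, and TG Me-X04- 5 alone of its group lay within the WT range. Such a separation from TG Me-X04- was seen for 4.8% of all genes in the higher direction, and from WT for 6.56%. The difference from TG Me-X04- was a log2FC of 1.54 (SE 0.25, limma adjusted p = 0.0017), a 2.91-fold rise, and that from WT a log2FC of 2.15 (SE 0.23, limma adjusted p = 1.06e-05), a 4.45-fold rise. Between TG Me-X04- and WT the log2FC was 0.61 (SE 0.22, limma adjusted p = 0.682), with a 95% confidence interval of 0.15 to 1.07 before adjustment.

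Fth1 was higher in the dye-positive cells of each animal. In TG1, TG2, TG3 and TG4 the positive cells exceeded the negative cells by 1.52, 1.53, 1.37 and 1.06 on the log2 scale. The share of all genes higher in each animal was not counted. Within set A the difference of the group means was 1.52 and within set B 1.48 on the log2 scale, so it did not follow the split between sets. With libraries scaled by the reads outside the mitochondrial genome, Fth1 still rose, by a log2FC of 1.15 (limma adjusted p = 0.00461). Under quantile normalization its log2FC was 0.70 and it was no longer called (limma adjusted p = 0.0578). In rank among all genes, Fth1 stood between 77 and 109 in WT libraries, between 59 and 81 in TG Me-X04- libraries and between 46 and 52 in TG Me-X04+ libraries, counted from the most abundant mRNA per length. The mean level was 268 RPKM in WT, 418 RPKM in TG Me-X04- and 1205 RPKM in TG Me-X04+ libraries.

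Ftl1 (ENSMUSG00000050708, chr7:45457944-45459884), the ferritin light chain, was not called, and its level depended first on the set of libraries. In TG Me-X04+ libraries 1 to 4 it was 5.76, 6.31, 7.82 and 7.54 log2 RPKM. In TG Me-X04- libraries 1 to 5 it was 5.07, 5.09, 6.75, 6.46 and 6.15 log2 RPKM. In WT it ran from 4.44 to 6.63 log2 RPKM with a median of 5.84. Libraries of set B were 3.24-fold above those of set A in WT, 2.59-fold in TG Me-X04- and 3.12-fold in TG Me-X04+, and the groups overlapped across sets. Within each set, though, both TG Me-X04+ libraries lay above every TG Me-X04- and WT library. A set holds few libraries of each group, and the share of all genes separated in this way was not counted. The log2FC of TG Me-X04+ against TG Me-X04- was 0.95 (SE 0.54, 95% confidence interval -0.19 to 2.10, limma adjusted p = 0.373). Within the sets it was 0.95 (A) and 1.23 (B), and in the animals TG1 to TG4 it was 0.69, 1.22, 1.07 and 1.08. With a term for the sets in the model the log2FC was 1.11 (limma adjusted p = 0.000374) and Ftl1 was called, in a fit that called 11.9% of all genes. Against WT the log2FC was 1.317 (SE 0.51, limma adjusted p = 0.0952). With the term for the sets it was 1.43 (limma adjusted p = 4.9e-06), beside 21.8% of all genes called. The sets were read from these same values, so both calls with this term depend on that split.

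The ratio of the 2 ferritin chains moved with the set more than with the group, so it is given within sets, and its size carries the uncertainty of Ftl1 described in the next paragraph. In set A the ratio of Fth1 to Ftl1 in RPKM was 11.7 to 12.6 in WT, 13.2 to 15.4 in TG Me-X04- and 19.2 to 23.4 in TG Me-X04+ libraries. In set B it was 3.04 to 3.80 in WT, 3.53 to 4.85 in TG Me-X04- and 4.8 to 5.03 in TG Me-X04+ libraries. In set A the 3 groups, of 2 or 3 libraries each, did not overlap in this ratio, and in set B neighbouring groups did. The ratio was chosen for display with the values known and was not tested.

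**Figure D3:**
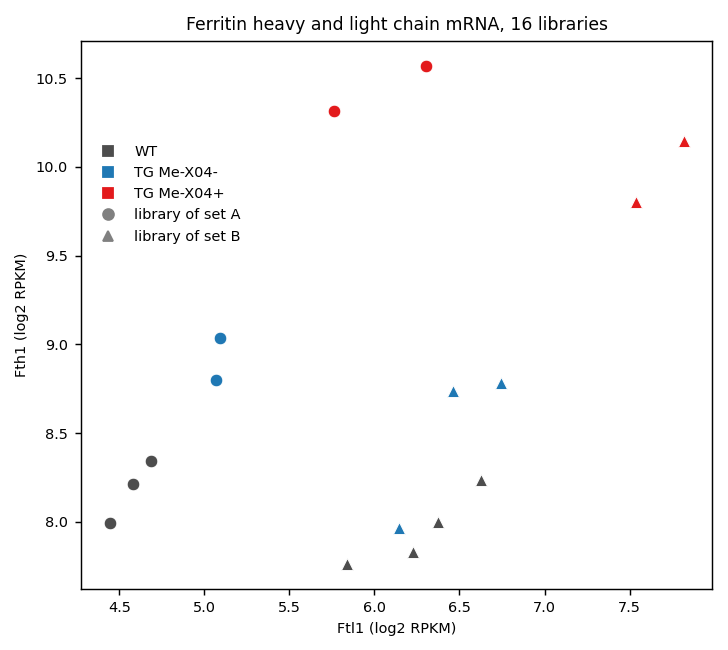
Fth1 (vertical axis) against Ftl1 (horizontal axis), both in log2 RPKM, for the 16 libraries. Colours are groups, circles set A and triangles set B. Both sets show TG Me-X04+ libraries at the upper right of their own set, and set B lies to the right of set A at similar Fth1 levels.

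Copies of the ferritin genes bear on these counts. Of the 50-base stretches of the longest Ftl1 transcript 90.6% also occurred, on either strand, in transcripts of 17 other annotated genes, among them the pseudogenes Ftl1-ps1, Ftl2-ps and Ftl1-ps2, and of its 75-base stretches 84.8% did. For Fth1 the shares were 4.01% and 2.32%, with Gm6977 as the only other gene. Reads of Ftl1 can therefore be divided between copies by the counting, which leaves its level uncertain. Only exact stretches of the longest transcript of each gene were compared. The check could miss near copies, so it does not clear Fth1 of the same uncertainty. Of the listed copies, Ftl2-ps (chr4:125504288-125504839) was 11.3 to 32.4-fold higher in set B than in set A within the groups, Ftl1-ps2 (chr10:130592157-130592705) was 4.10 to 8.17-fold higher, and none was called in any comparison. Fth-ps2 (chr6:39653450-39653965) ran from 3.32 to 5.69 log2 RPKM in TG Me-X04+ and from 0.24 to 3.06 log2 RPKM in TG Me-X04- libraries. These did not overlap, as for 4.8% of all genes in the higher direction, but its WT libraries ran from 1.15 to 5.18. Its log2FC between the TG groups was 2.35 (SE 0.81, limma adjusted p = 0.106).

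Ncoa4 (ENSMUSG00000056234, chr14:32159865-32179855), the ferritin receptor for lysosomal delivery, was not called. It was at 3.38, 3.49, 3.42 and 2.68 log2 RPKM in TG Me-X04+ libraries and between 2.68 and 3.66 in TG Me-X04- libraries, and the groups overlapped. The log2FC between them was 0.02, with a 95% confidence interval of -0.50 to 0.54 (limma adjusted p = 0.979). Against WT, whose libraries ran from 3.38 to 4.10, the log2FC of TG Me-X04+ was -0.41 (limma adjusted p = 0.268). Under the scaling outside the mitochondrial genome this last value was -0.71 and was called (limma adjusted p = 0.0206). A single other gene, Gm6768, held 43.1% of the 50-base stretches of Ncoa4.

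Tfrc (ENSMUSG00000022797, chr16:32608920-32632794), the transferrin receptor with 4 matches to the searched motif in its 3′ UTR, was low in every group and scattered in the dye-positive cells. Its level was -1.30, 0.91, 0.67 and -0.20 log2 RPKM in TG Me-X04+ libraries 1 to 4. It was 0.68, 0.82, 0.32, -0.05 and 0.83 log2 RPKM in TG Me-X04- libraries 1 to 5 and ran from -0.25 to 0.42 in WT. The groups overlapped, and TG Me-X04+ libraries held both the lowest and the highest value. The log2FC of TG Me-X04+ against TG Me-X04- was -0.50 (SE 0.42, 95% confidence interval -1.39 to 0.39, limma adjusted p = 0.584), and -0.06 without TG Me-X04+ 1. Tfrc was higher in the positive cells of 2 of 4 animals. Against WT the log2FC was -0.02 (limma adjusted p = 0.987), with a sign that changed between settings.

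Steap3 (ENSMUSG00000026389, chr1:120190757-120272705), the endosomal reductase that works with the transferrin receptor, fell in TG Me-X04+ microglia against WT, on few reads. TG Me-X04+ libraries 1 to 4 had 0, 0, 61 and 1 reads of Steap3. TG Me-X04- libraries 1 to 5 had 14, 43, 17, 47 and 16 reads, and WT libraries from 17 to 49. In log2 RPKM these were -5.90, -5.90, -1.05 and -5.37 in TG Me-X04+, -3.00 to -1.34 in TG Me-X04- and -2.84 to -0.76 in WT. Of the TG Me-X04+ libraries 3 thus lay below every other library, and the remaining one, number 3, lay above all TG Me-X04- libraries. The log2FC against WT was -2.63 (SE 0.79, limma adjusted p = 0.0332), and that against TG Me-X04- was -2.27 (SE 0.85, 95% confidence interval -4.06 to -0.48, limma adjusted p = 0.142), which was not called. The fitted values rest on the prior added to libraries at 0 reads: with 1 RPKM added to each value, the log2FC against WT was -0.20 (limma adjusted p = 0.321). Without TG Me-X04+ 3 the log2FC was -3.79 against WT (limma adjusted p = 0.000361) and -3.44 against TG Me-X04- (limma adjusted p = 0.00467), both called. Without TG Me-X04+ 1, 2 or 4, or WT 1 or 3, the fall against WT was no longer called (log2FC -2.53 to -2.18).

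Neither iron sensor was called in any comparison. Aco1 (ENSMUSG00000028405, chr4:40143081-40198338) ran from 1.36 to 1.80 log2 RPKM in TG Me-X04+, from 1.41 to 1.79 in TG Me-X04- and from 0.90 to 1.95 in WT libraries, with the groups overlapping. Its log2FC between the TG groups was 0.04, with a 95% confidence interval of -0.50 to 0.57 (limma adjusted p = 0.959). Ireb2 (ENSMUSG00000032293, chr9:54863789-54912530) ran from 3.16 to 4.00 log2 RPKM in TG Me-X04+, from 3.47 to 4.05 in TG Me-X04- and from 3.42 to 4.88 in WT libraries. Its log2FC between the TG groups was -0.07, with a 95% confidence interval of -0.65 to 0.50 (limma adjusted p = 0.92). In every group the set A libraries of Ireb2 lay above those of set B. Ireb2 was the more abundant of the pair per length, with a mean level of 13.1 RPKM against 3.00 RPKM for Aco1 in TG Me-X04- libraries.

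Hmox1 (ENSMUSG00000005413, chr8:75093621-75100589), heme oxygenase, was highest on average in TG Me-X04+ microglia but was not called. It was at 2.74, 3.24, 3.58 and 2.97 log2 RPKM in TG Me-X04+ libraries 1 to 4. In TG Me-X04- libraries 1 to 5 it was at 2.43, 3.10, 2.55, 2.40 and 1.22 log2 RPKM, and in WT it ran from 1.37 to 2.81 with a median of 2.23. The TG groups overlapped through TG Me-X04- 2, and the WT range reached just above TG Me-X04+ 1. The log2FC between the TG groups was 0.79 (SE 0.36, 95% confidence interval 0.04 to 1.54, limma adjusted p = 0.235). The positive cells were higher in 4 of 4 animals, by 0.31, 0.13, 1.03 and 0.57 on the log2 scale, and the libraries of set A differed by 0.22 and those of set B by 1.22. The share of all genes higher in 4 of 4 animals was not counted. Against WT the log2FC was 0.95 (SE 0.33, limma adjusted p = 0.0639), and it was called in 2 of 26 alternatives. These were the fit without WT 3 (1.06, limma adjusted p = 0.0432) and that with a term for the sets (0.95, limma adjusted p = 0.04). They called 13.9% and 21.8% of all genes, beside 14.3% in the fit used for calls, and the sets were read from these same values.

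Blvrb (ENSMUSG00000040466, chr7:27447978-27466144), biliverdin reductase B, and Gpx4 (ENSMUSG00000075706, chr10:80047166-80056439) could not be resolved between groups. Blvrb ran from -0.66 to 3.15 log2 RPKM in TG Me-X04+, from -0.65 to 2.88 in TG Me-X04- and from -1.16 to 2.61 in WT libraries. Set B was above set A in each group, 3.84 to 8.17-fold, and its signed log2 difference of set B minus set A, averaged over the groups, was above that of 97.8% of all genes. The log2FC between the TG groups was 0.39, with a 95% confidence interval of -1.65 to 2.44 (limma adjusted p = 0.876). Gpx4 ran from -1.46 to 1.62 log2 RPKM in TG Me-X04+, from -1.43 to 1.16 in TG Me-X04- and from -2.0 to 1.65 in WT libraries, on 5 to 122 reads. Its libraries of set B were 3.98 to 5.44-fold above those of set A on average, and its log2FC between the TG groups was 0.01, with a 95% confidence interval of -1.76 to 1.79 (limma adjusted p = 0.997). These intervals leave a change of several-fold in either direction undetectable. Other annotated genes held 61.7% of the 50-base stretches of Gpx4, and none held any of Blvrb.

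A wider list of 86 genes of iron transport, iron storage partners, heme synthesis, heme uptake and breakdown, iron-sulfur cluster assembly, glutathione defence and their regulators was read beside the 10 genes, and 71 were in the table. Between the TG groups 4 of the 71 were called, 2 higher and 2 lower, against 5.49% of all genes. This split depended on the scaling: quantile normalization and the scaling outside the mitochondrial genome each called 0 higher and 4 lower (Gclc, Maf, Slc25a37 and Slc40a1), beside 4.61% and 6.43% of all genes, and median centring 2 higher and 0 lower. Their median log2FC was -0.06. The called genes were 3 of the 13 listed for iron transport and 1 of the 7 regulators. None of the 9 genes of heme synthesis, 11 of heme uptake and breakdown, 14 of iron-sulfur assembly, 10 of glutathione defence or 7 storage partners was called by limma, of which 0, 0, 3, 2 and 1 had an unadjusted p under 0.05. None of the 71 was called by limma between TG Me-X04- and WT, where 4 had an unadjusted p under 0.05. Against WT, 7 of the 71 were called in TG Me-X04+ microglia, 4 higher and 3 lower, against 14.3% of all genes. With the animal as a random block, 7 of the 71 were called between the TG groups, Slc40a1, Hscb and Lyrm4 in addition to the 4, while the share of all genes called rose to 11.8%. Without TG Me-X04- 5, TG Me-X04+ 2 or TG Me-X04+ 3, 2 were called (Maf and Slc11a1).

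Slc11a1 (NRAMP1), which moves iron and other divalent metals out of the phagosome, rose in TG Me-X04+ microglia. It was at 4.99, 5.16, 5.12 and 5.31 log2 RPKM in TG Me-X04+ libraries and at 4.68, 4.07, 4.01, 3.92 and 4.15 in TG Me-X04- libraries, and the WT libraries ran from 3.67 to 4.12. The TG Me-X04+ libraries lay above all others. Such a separation was seen for 4.8% of all genes from TG Me-X04- and for 6.56% from WT. The log2FC was 0.98 against TG Me-X04- (SE 0.18, limma adjusted p = 0.00384) and 1.21 against WT (SE 0.17, limma adjusted p = 9.72e-05). Between the TG groups it was no longer called with quantile normalization (0.60, limma adjusted p = 0.079) or the scaling outside the mitochondrial genome (0.59, limma adjusted p = 0.0903). Trf, transferrin, which carries iron between cells, was at 6.53, 7.53, 7.33 and 7.50 log2 RPKM in TG Me-X04+ libraries, between 6.16 and 6.36 in TG Me-X04- and between 5.27 and 6.25 in WT libraries, again without overlap. Its log2FC was 0.97 against TG Me-X04- (SE 0.24, limma adjusted p = 0.0251) and 1.36 against WT (SE 0.23, limma adjusted p = 0.000479). Trf is also a marker of oligodendrocytes, and without Trf the summed level of the 6 other oligodendrocyte markers listed was 10.8 to 14.9 RPKM in TG Me-X04+, 13.9 to 15.9 RPKM in TG Me-X04- and 7.40 to 17.9 RPKM in WT libraries. The call of Trf between the TG groups was lost without TG Me-X04- 4 or 5 or TG Me-X04+ 2, 3 or 4 (log2FC 0.87 to 0.97). It was also lost with only the TG groups in the fit (0.97, limma adjusted p = 0.0597), with the scaling outside the mitochondrial genome (0.58, limma adjusted p = 0.234) and with quantile normalization (0.31, limma adjusted p = 0.628). Quantile normalization also ended its call against WT (0.70, limma adjusted p = 0.086).

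Genes that fell were an iron exporter, a mitochondrial iron carrier and a transcription factor. Slc40a1 (ferroportin), the only known cellular iron exporter, was at 3.16, 2.51, 2.45 and 2.57 log2 RPKM in TG Me-X04+ libraries and at 3.38, 3.85, 3.06, 3.17 and 3.71 in TG Me-X04- libraries, and ran from 3.72 to 4.65 in WT. The TG Me-X04+ libraries lay below all WT libraries, as for 3.97% of all genes, and overlapped TG Me-X04- libraries through TG Me-X04+ 1. The log2FC was -1.49 against WT (SE 0.24, limma adjusted p = 0.000382) and -0.76 against TG Me-X04- (SE 0.26, limma adjusted p = 0.102). The latter was called in 4 of 24 alternatives. These were the animal as a random block (-0.73, limma adjusted p = 0.0291), a term for the sets (-0.81), quantile normalization (-0.90) and the scaling outside the mitochondrial genome (-1.15). They called 11.8%, 11.9%, 4.61% and 6.43% of all genes, beside 5.49% in the fit used for calls. The sets were read from these same values, and the last scaling moved the median log2FC of all genes to -0.46.

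Slc25a37 (mitoferrin-1), which imports iron into mitochondria, was at 3.69, 3.63, 3.63 and 3.43 log2 RPKM in TG Me-X04+, between 4.25 and 4.54 in TG Me-X04- and between 4.69 and 5.59 in WT libraries. The 3 groups did not overlap, a separation in the lower direction that 3.14% of all genes showed between the TG groups; against WT it was shown by 0.407% for TG Me-X04- and 3.97% for TG Me-X04+. The log2FC was -0.83 against TG Me-X04- (SE 0.22, limma adjusted p = 0.0315) and -1.55 against WT (SE 0.20, limma adjusted p = 5.43e-05), and the first was called in 2 of 9 fits that left out 1 library, without TG Me-X04- 2 and without TG Me-X04+ 1. It was not called with median centring (-0.80, limma adjusted p = 0.0856) or without a variance trend (-0.83, limma adjusted p = 0.0599). Maf, a transcription factor of macrophages whose family partners include regulators of heme genes, was at 4.75, 4.83, 4.38 and 4.16 log2 RPKM in TG Me-X04+, between 5.41 and 6.01 in TG Me-X04- and between 5.79 and 6.97 in WT libraries. Its TG Me-X04+ libraries lay below all others, and its log2FC was -1.15 against TG Me-X04- (SE 0.26, limma adjusted p = 0.0149) and -1.70 against WT (SE 0.24, limma adjusted p = 0.000121). The first was no longer called with median centring (-1.12, limma adjusted p = 0.0521).

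Of the iron-sulfur cluster genes, Hscb, a cochaperone that hands over new clusters, and Nfs1, the cysteine desulfurase that supplies their sulfur, rose against WT. Hscb was at 4.03, 5.59, 4.25 and 4.43 log2 RPKM in TG Me-X04+ and between 2.64 and 3.44 in WT libraries, with a log2FC of 1.48 (SE 0.32, limma adjusted p = 0.00378). Nfs1 was at 2.23, 2.73, 2.29 and 2.28 log2 RPKM in TG Me-X04+ and between 0.72 and 1.70 in WT libraries, with a log2FC of 0.93 (SE 0.25, limma adjusted p = 0.0159). Neither overlapped WT, which held for 6.56% of all genes in the higher direction. The call of Nfs1 was lost without TG Me-X04+ 2 (0.82, limma adjusted p = 0.0573) and with array weights (0.73, limma adjusted p = 0.0544). It was also lost with the scaling outside the mitochondrial genome (0.63, limma adjusted p = 0.12). These 2 of 14 genes stand beside 14.3% of all genes called against WT, the same share. The other 12 genes of this list were not called, and its median log2FC against WT was -0.01.

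**Figure D4:**
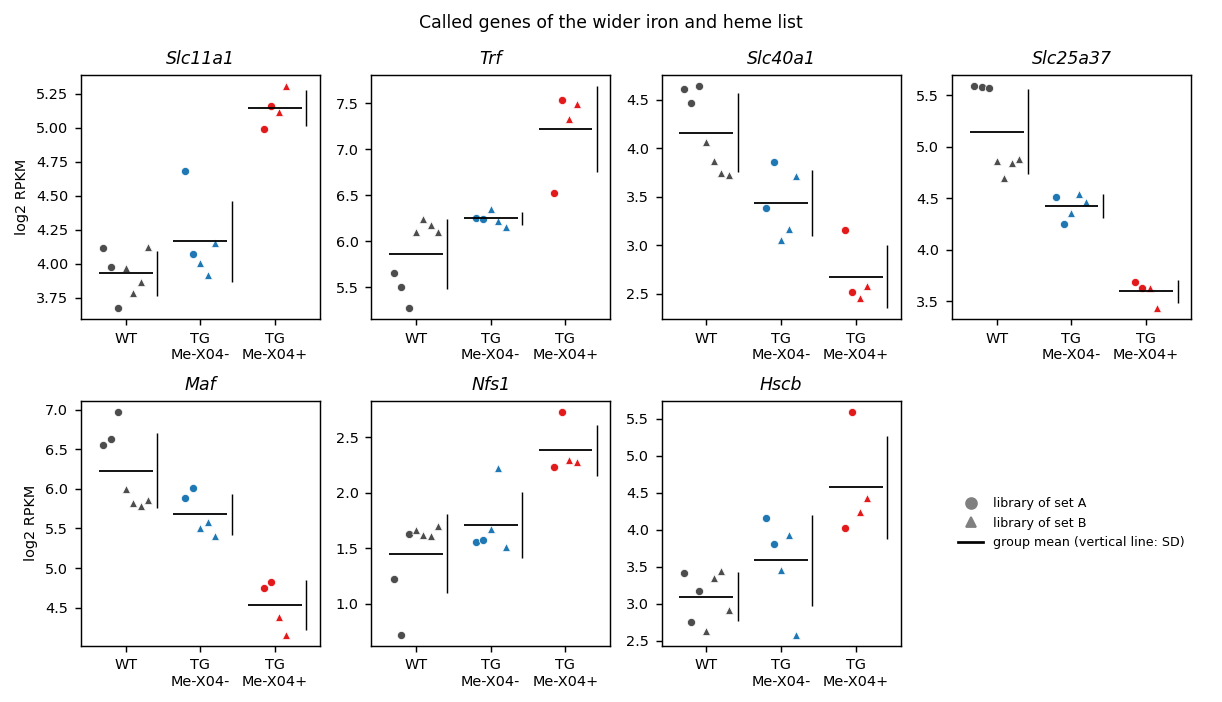
The 7 genes of the wider list called in a comparison with TG Me-X04+ microglia (log2 RPKM, vertical axis, own scale per panel) in every library, by group. Circles are libraries of set A and triangles those of set B, the horizontal line is the group mean and the vertical line its SD. Slc25a37 shows 3 groups without overlap, and Slc11a1, Trf and Maf a TG Me-X04+ group apart from both others.

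Genes whose levels ran most like those of Fth1, Ftl1 and Hmox1 were looked up among 13201 genes with a symbol and a mean of at least 0 log2 RPKM, as a description over 16 libraries that share groups and sets. For Fth1 these were Tpt1 (Pearson r = 0.985), Ctsz (0.985), Rpl31 (0.984), Gm6977 (0.983) and Gm20430 (0.982). Gm6977 is the gene found to share exact stretches with Fth1. For Ftl1 they were Gm14633 (0.986), Gm2174 (0.986), Rpl10-ps1 (0.985), Rpl10-ps3 (0.983) and Gm15710 (0.982). For Hmox1 they were Ost4 (0.850), Pomp (0.845), Gm33051 (0.844), Rps12-ps1 (0.833) and Gm29668 (0.828). Among the 10 genes themselves the highest positive correlations were between Ncoa4 and Ireb2 (r = 0.780), Ftl1 and Blvrb (0.768), Blvrb and Gpx4 (0.756) and Ftl1 and Gpx4 (0.715), pairs whose members were apart between sets in the same direction on average. The most negative were between Ftl1 and Ireb2 (-0.829) and Blvrb and Ireb2 (-0.795), which were apart between sets in opposite directions. Fth1 and Hmox1 had an r of 0.692, and Fth1 and Ftl1 one of 0.410 over all 16 libraries.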

How the data were processed

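RNA of 16 libraries of sorted microglia was measured by RNA sequencing. Libraries were made with the Ovation RNA-Seq System V2 and Ovation Ultralow kits. The authors trimmed reads with Trim Galore 0.4.4, aligned them to GRCm38 with STAR 2.5.4b, assigned them to Gencode genes by featureCounts, dropped genes with few reads and scaled libraries by TMM, and named edgeR 3.24.3 for their tests. Whether reads were counted by strand, and how reads with several matches were counted, is not given in the sources used here. The authors deposited log2 RPKM values for 17951 genes, with a prior averaging 2 reads added. A further 12 columns hold the authors' own comparisons (log2 fold changes, p-values, adjusted p-values and scores) and were not used. Whole reads were recovered for 100% of values (tolerance 0.01 read) and served for depth and for an alternative with limma voom, which called 1025 genes between the TG groups, and against WT 25 for TG Me-X04- and 2328 for TG Me-X04+.

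Testing used limma 3.58.1 (R 4.3.3) on the log2 values, with lmFit and a trended eBayes, 3 groups in 1 fit and no covariates. Tests were two-sided and p-values were adjusted by Benjamini-Hochberg across the whole table. Calls needed an adjusted p below 0.05 together with a log2FC of 0.7 or more in size. Confidence intervals are 95% intervals of single genes without adjustment. The test was also run on simulated reads with noise drawn independently for each gene and library. That simulation held neither the 2 sets nor shared animals, so it does not cover their effect on the calls. The members and lists were chosen with earlier results of these data known. All 10 genes are named, together with every called gene of the wider list, every pseudogene copy listed under a member's name, and the 5 genes most correlated with Fth1, Ftl1 and Hmox1. The labels number the WT animals separately, and p-values measure the spread between these libraries. Same-numbered TG libraries carry the same animal label, and their deviations from the group means correlated at 0.292 to 0.329 in the 4 pairs, beside 0.221 to 0.332 in the 6 pairs of other numbers within a set. The pairing is therefore taken from the labels, not from this check. Alternatives were other variance models, weights, scalings, pseudocounts, a filter, fewer groups, blocks for number or animal, a term for the sets and leaving out each library. Sequences and coordinates are from Gencode on GRCm38, a later release than the authors' annotation. No 2 libraries agreed within counting noise.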

Additional observations from a re-analysis of the deposited data

Results flagged for a closer look

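In 51 groups of libraries examined (the 10 genes and the 7 called genes of the wider list, in 3 groups each), 6 values stood far from the others of their group by Dixon's test at 95%. Chance gives such a value in about 1 in 20 groups.

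Fth1 in TG Me-X04- 5 was at 7.97 log2 RPKM, with the nearest library of the group at 8.74. Without this library the log2FC of Fth1 between TG Me-X04- and WT was 0.79 and was not called (limma adjusted p = 0.255), and that between the TG groups was 1.37 and was called (limma adjusted p = 0.00442). Ncoa4 in TG Me-X04+ 4 was at 2.68 log2 RPKM, with the nearest at 3.38. Steap3 in TG Me-X04+ 3 was at -1.05 log2 RPKM, with the nearest at -5.37. Nfs1, the cysteine desulfurase, was at 2.23 log2 RPKM in TG Me-X04- 4, with the nearest at 1.68, and at 2.73 log2 RPKM in TG Me-X04+ 2, with the nearest at 2.29. Slc40a1 in TG Me-X04+ 1 was at 3.16 log2 RPKM, with the nearest at 2.57, and without this library its log2FC between the TG groups was -0.92 and was not called (limma adjusted p = 0.0593).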

How the results depend on the processing

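Fth1 between the TG groups was called in 23 of 24 alternatives, lost with quantile normalization, and against WT in 26 of 26. Steap3 against WT was called in 14 of 25. Of the 10 genes, 1 was called between the TG groups, 0 with quantile normalization, 2 with a term for the sets and 1 to 2 with a library left out (2 without TG Me-X04+ 3). Against WT 2 were called, 1 each with array weights, quantile normalization, log2(value + 1), log2(value + 0.1), a filter at a mean log2 value of 0, which removed Steap3, or only the groups compared, 4 with the term for the sets (Fth1, Ftl1, Hmox1, Steap3; this term called 21.8% of all genes here and 11.9% between the TG groups), and 1 to 2 with a library left out. Of the wider list 4 were called between the TG groups, 2 with median centring and 2 to 4 with a library left out. Quantile normalization and mitochondrial scaling also called 4, but 0 higher and 4 lower, without Slc11a1 and Trf. Against WT 7 were called, 12 with scaling outside the mitochondrial genome and 7 to 10 with a library left out. Between TG Me-X04- and WT 0 were called and 1 (Slc25a37) with the term for the sets. Apart from the filter, the cause was not tested.

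In the paired analysis the animal as a random block called 7 genes of the wider list between the TG groups against 4 without it, with 11.8% of all genes called against 5.49%, and the replicate number as a fixed block called 4. Of the 10 genes each block called 1 between the TG groups. Against WT the numbers pair no animals; the number block called 2 (Fth1 and Ftl1) and the animal block 2.

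Changes of sign concerned only values that were not called. Between the TG groups, Ncoa4 was -0.13 with quantile normalization, -0.37 with mitochondrial scaling, -0.039 with the number block and -0.031 with the term for the sets; Aco1 was -0.034 with array weights and -0.35 with mitochondrial scaling; Gpx4 was -0.35 with that scaling. With a library left out the ranges were -0.12 to 0.21 for Ncoa4, -0.026 to 0.12 for Aco1, -0.50 to 0.52 for Gpx4, -0.13 to 1.22 for Blvrb and -0.20 to 0.079 for Ireb2. Between TG Me-X04- and WT, Hmox1 was -0.043 and Blvrb -0.028 with array weights, and Gpx4 0.095 with the number block, with ranges of -0.029 to 0.44 for Hmox1 and -0.53 to 0.21 for Gpx4 with a library left out. Between TG Me-X04+ and WT, Tfrc was 0.28 with array weights, 0.0033 with median centring, 0.22 with quantile normalization, 0.049 with log2(value + 1), 0.0076 with log2(value + 0.1), 0.015 with the animal block and 0.067 with voom; Aco1 was -0.091 with mitochondrial scaling; Gpx4 was 0.061 with quantile normalization, 0.30 with the number block and 0.0077 with the term for the sets. With a library left out the ranges were -0.31 to 0.42 for Tfrc and -0.67 to 0.36 for Gpx4. Values of Steap3 and Gpx4 rest on few reads, 0 to 61 and 5 to 122 in a library, and why these were few was not tested.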
